A study of Rattus norvegicus with 16 samples.

Results

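The comparison described here set rat mesenchymal stromal cells (MSCs) kept for 24 h in M1CM, the medium taken from M1-polarized macrophages, against MSCs of the same animals kept for 24 h in Pol1, the polarizing medium without macrophages. It comprised 8 of the 16 RNA-seq libraries of the series, chosen by their labels, with n = 4 rats (rats 2, 3, 4 and 8) in each condition. All MSCs came from the bone marrow of adult, wild-type female Sprague-Dawley rats and had been sorted as CD29+/CD45- cells, and the other 8 libraries held cells of the same 4 rats in M0CM (medium of unpolarized macrophages) or D10 (serum-supplemented DMEM, the growth medium). The labels give Pol1 as D10 with 100 ng/ml lipopolysaccharide (LPS) and 20 ng/ml interferon gamma, whereas the study's methods describe a polarizing medium based on RPMI-1640 with macrophage colony-stimulating factor and another dose of interferon gamma. M1CM had been on LPS- and interferon gamma-treated macrophages, was cleared by centrifugation and was used after thawing, while Pol1 was freshly made. Products of the macrophages, nutrients they used up, what was left of LPS and interferon gamma, the freezing step and any difference of base medium therefore cannot be told apart in this comparison.

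MSCs are stromal cells that support blood formation in the marrow and secrete growth factors and immune mediators. LPS acts through Toll-like receptor 4 and NF-kB, and interferon gamma acts through JAK kinases to raise interferon-responsive genes. M1 macrophages answer the same pair of signals by releasing cytokines such as tumor necrosis factor and interleukin-1, which reach receptors on stromal cells that neither LPS nor interferon gamma uses.

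Library totals were 23291125 to 27808152 counts in M1CM and 25097631 to 28075391 counts in Pol1, and no 2 libraries were identical. Levels below are counts per 1e6 counts (CPM) after scaling, with library values in the order of rats 2, 3, 4 and 8, and means with the SD over the 4 libraries. CPM compare 1 gene between libraries and not different genes, since they are not divided by length. The cells carried the transcripts of their sort and their type. Thy1, which encodes the stromal marker CD90, stood at 1325, 899, 1320 and 1239 CPM in M1CM, against 1259, 1154, 1308 and 1066 CPM in Pol1. These ranges overlapped, and the difference was within the error (log2 fold change -0.00, SE 0.13, adjusted p = 0.982). Itgb1, which encodes the CD29 of the sort, had 1151, 1207, 1418 and 1688 CPM in M1CM and 1400, 1464, 2025 and 2087 CPM in Pol1. It was lower in M1CM in each rat with overlapping ranges (log2 fold change -0.34, SE 0.10, adjusted p = 0.0114), a call that ended without rat 4, without rat 8 and without a term for the rat. Cd34 had no counts in any library.

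Ptprc, which encodes the leukocyte antigen CD45, had 12 counts over the 4 M1CM libraries and 0 over the 4 Pol1 libraries, and the macrophage adaptor gene Tyrobp and the scavenger receptor gene Cd163 had 0 in both. Csf1r, the M-CSF receptor gene, had 86 counts in M1CM and 69 in Pol1, and the myeloid transcription factor gene Spi1 had 64 in M1CM and 137 in Pol1. Across the 21 macrophage and monocyte markers in the table, the summed level was 77.8, 76.4, 65.1 and 51.3 CPM in M1CM, against 28.3, 25.0, 22.7 and 17.4 CPM in Pol1. All M1CM sums lay above all Pol1 sums. Of these markers 16 were tested, 8 were higher in M1CM and 2 (Spi1 and Itgax) were lower, calls that ended without rat 4, without rat 8 and without a term for the rat. Most of the sum came from Mpeg1 (mean 25.5 CPM in M1CM and 4.61 CPM in Pol1), Cd14 (16.9 and 7.91 CPM) and Ncf1 (10.2 and 1.90 CPM). The part of carried-over macrophage RNA in the differences below was not tested. In bulk RNA, fewer cells of a type and less RNA per cell cannot be told apart.

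**Figure D1:**
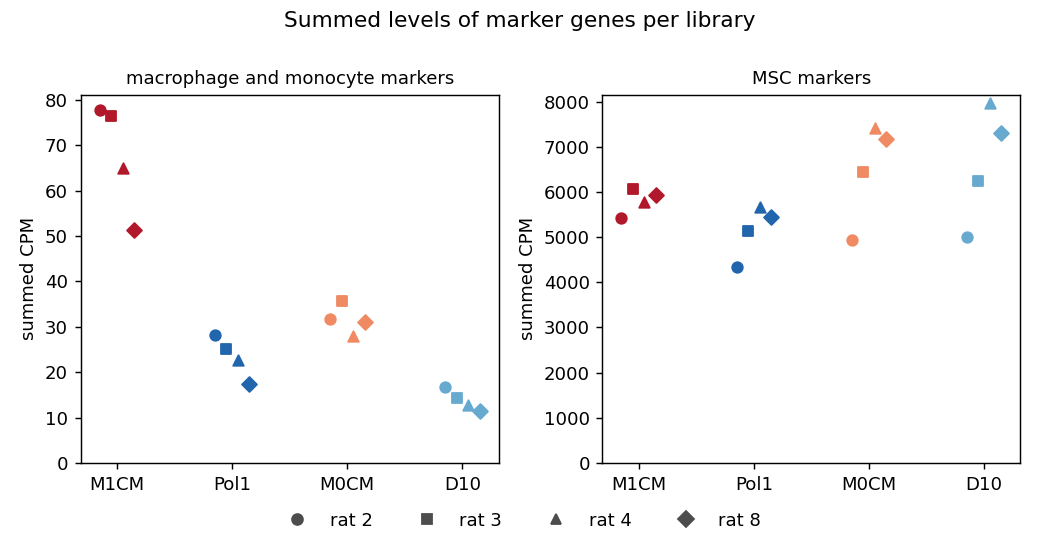
Summed CPM of the macrophage and monocyte markers (left) and of the MSC markers (right) in each library of the 4 media, with a marker shape per rat. The M1CM sums of macrophage and monocyte markers (51.3 to 77.8 CPM) lie above the Pol1 sums (17.4 to 28.3 CPM), while the MSC markers sum to 5419 to 6055 CPM in M1CM and 4337 to 5676 CPM in Pol1.

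M1CM set MSCs widely apart from Pol1. Of 13556 genes with enough counts to test, 5336 differed between the media (39.4%, edgeR's quasi-likelihood test with a term for the rat, Benjamini-Hochberg adjusted p below 0.05), 2691 of them higher in M1CM (19.9%) and 2645 lower (19.5%). At least 2-fold differences were found for 927 genes that were higher (6.84%) and 886 that were lower (6.54%). The direction was the same in all 4 rats for 2501 of the 2691 higher genes and 2443 of the 2645 lower genes. Over the 13556 genes the median log2 fold change was -0.01. Without the term for the rat, 1535 genes were lower in M1CM. The shares 19.9% and 19.5% are the background against which each list of genes below is read. A count near the share of its direction is not read as a result about its list. Such counts include the lower cytokine receptor genes and the higher genes of focal adhesion and of the integrated stress response. A gene that reached the counts needed for testing in M1CM alone could only be called higher or not called. Lists that hold such genes are therefore not fully comparable with these shares.

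The rises and falls named first are among the largest called ones of the genes with a mean of at least 5 CPM in the higher medium. Csf3, which encodes the granulocyte colony-stimulating factor, had 82.7, 61.9, 232 and 45.2 CPM in M1CM, against 0.0405, 0.108, 0.205 and 0 CPM in Pol1. Every M1CM library was far above every Pol1 library, with rat 4 highest in both media (log2 fold change 10.15, SE 0.22, adjusted p = 2.87e-12). The 4 Pol1 libraries held only 10 counts of Csf3 in all, so the size of this fold is less certain than its SE shows. Mmp12, the macrophage elastase gene, had 11, 50.6, 55.9 and 17 CPM in M1CM and 0.081, 0, 0 and 0.0711 CPM in Pol1. Its 4 Pol1 libraries held 4 counts in all, so that its fitted log2 fold change (9.56, SE 0.51, adjusted p = 3.24e-08) moved between 8.76 without rat 4 and 10.46 without rat 2. Mmp12 also had 107 counts over the M0CM libraries, against 1 over the D10 libraries. In the second test, given further below, it was not called (contrast 3.19, SE 3.15, adjusted p = 0.504). Il1b, encoding interleukin-1 beta, had 5.09, 5.01, 36.1 and 40.5 CPM in M1CM and 0, 0, 0.0342 and 0.0711 CPM in Pol1. Rats 4 and 8 were the high ones in M1CM. With only 3 counts over the Pol1 libraries, the ratio of levels was 825, with a 95% exact interval of 282 to 4005 that covers counting error only.

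Mmp13, the collagenase-3 gene, had 716, 2526, 4945 and 3462 CPM in M1CM, against 4.34, 5.1, 4.41 and 11 CPM in Pol1. No values overlapped, rat 2 being lowest in both media (log2 fold change 8.92, SE 0.74, adjusted p = 8.97e-07, and 8.31 without rat 4). For Cxcl2, a chemokine that attracts neutrophils, the M1CM values of 43.5, 26.1, 253 and 149 CPM stood against 0.203, 0.18, 0.273 and 0.32 CPM in Pol1. The Pol1 values were nearly alike while those in M1CM spread widely, with rat 4 highest (log2 fold change 8.76, SE 0.33, adjusted p = 2.19e-09, and 8.13 without rat 4). Il23a, encoding the p19 chain of interleukin-23, had 1.54, 2.31, 120 and 13.8 CPM in M1CM and 0.0405, 0.18, 0.0342 and 0 CPM in Pol1. It rose in all 4 rats, with rat 4 far above the other rats in M1CM (log2 fold change 8.44, SE 0.92, adjusted p = 9.32e-06, but 5.83 without rat 4 and 10.42 without rat 3).

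Among the falls at 5 CPM or more, Wisp2, Lmod1, Dact1, Fat3 and Duox1 came first, while genes with lower levels such as Cavin2 (log2 fold change -5.75) and Limch1 (-5.48, and -6.59 without rat 2 and -4.65 without rat 8) had larger fitted falls. Wisp2, which encodes a matricellular protein of the CCN family, had 2.78, 1.97, 6.92 and 17.4 CPM in M1CM, against 132, 84.7, 281 and 386 CPM in Pol1. The rats kept the same order in both media, and the ranges were far apart (log2 fold change -5.08, SE 0.24, adjusted p = 1.36e-08). Lmod1, encoding leiomodin, which starts actin filaments in smooth muscle, had 2.59, 1.54, 1.85 and 2.75 CPM in M1CM and 44.1, 31.6, 58.3 and 92.3 CPM in Pol1. All M1CM libraries sat at one low level (log2 fold change -4.62, SE 0.25, adjusted p = 3.44e-08). Dact1, whose protein binds dishevelled in the Wnt pathway, had 0.733, 1.07, 0.491 and 1.61 CPM in M1CM, against 18.8, 26.3, 24.6 and 20.3 CPM in Pol1. Both groups were tight and did not overlap (log2 fold change -4.51, SE 0.25, adjusted p = 4.31e-08). Fat3, an atypical cadherin gene, had 0.54, 0.128, 0.0378 and 0.321 CPM in M1CM and 8.51, 0.754, 3.83 and 9.56 CPM in Pol1. The Pol1 value of rat 3 came near the M1CM values (log2 fold change -4.39, SE 0.55, adjusted p = 2.86e-05). Duox1, a dual oxidase gene, had 0.733, 0.814, 1.1 and 2.86 CPM in M1CM, against 12, 13.5, 58.4 and 37.3 CPM in Pol1. Rats 4 and 8 were the high ones in both media (log2 fold change -4.37, SE 0.43, adjusted p = 3.75e-06).

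**Figure D2:**
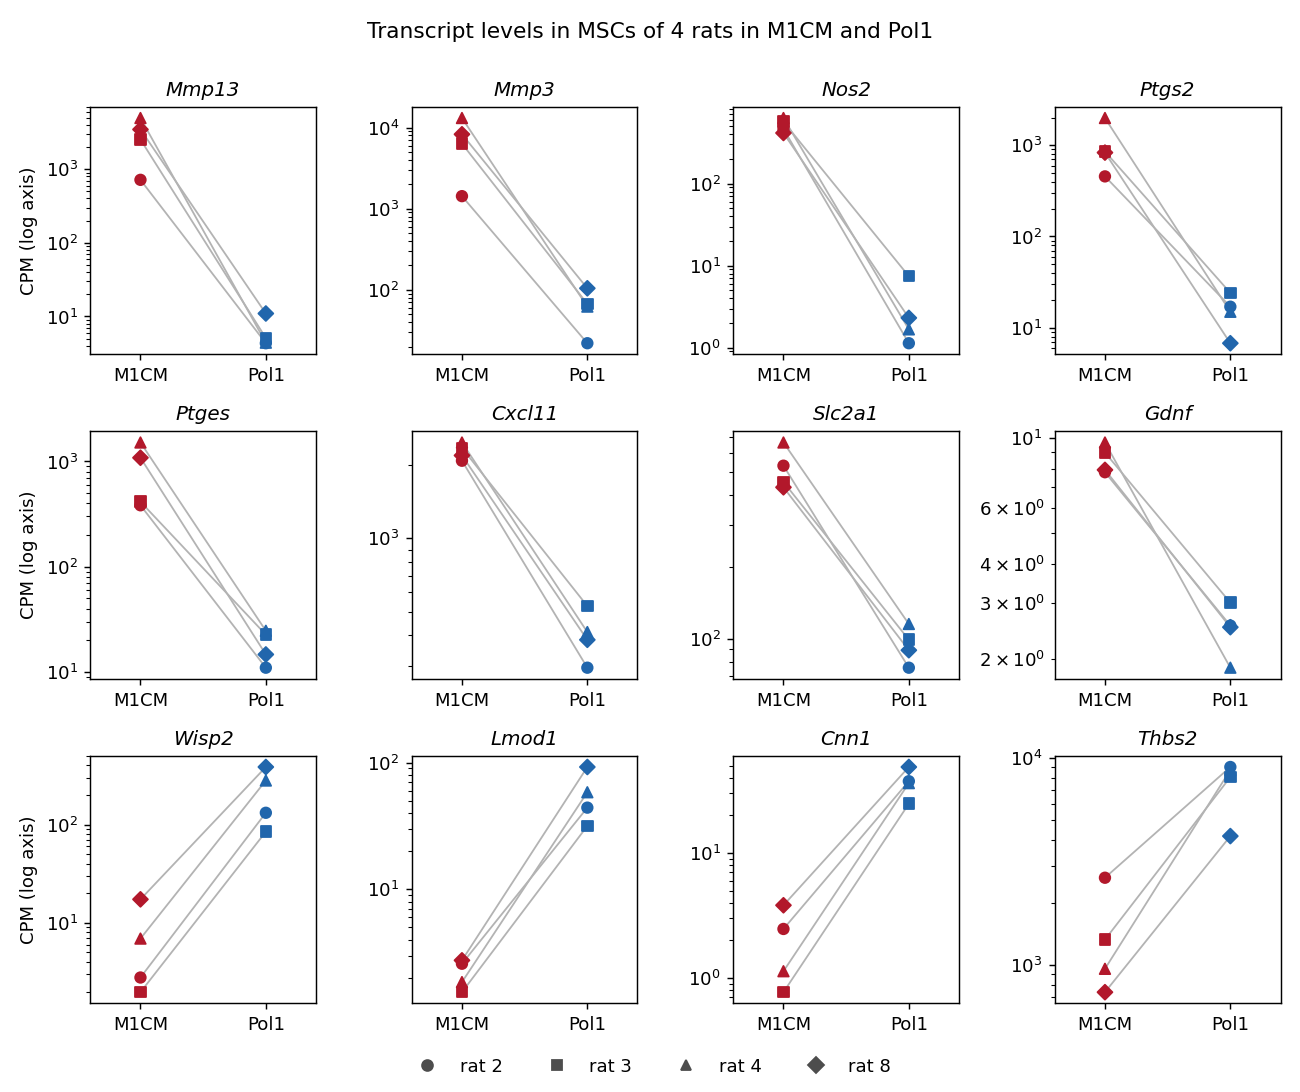
Levels of 12 genes in M1CM (red) and Pol1 (blue), in CPM on a log axis, with a line joining the 2 libraries of each rat. The genes shown were picked from called ones, and in these panels the 4 M1CM libraries do not overlap the 4 Pol1 libraries. The panels run from Mmp13 (716 to 4945 CPM in M1CM and 4.34 to 11 CPM in Pol1) to Thbs2 (739 to 2638 CPM in M1CM and 4191 to 9037 CPM in Pol1). Other called genes, such as Hgf and Cdc20, had overlapping values.

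The sequences before the start sites of the extreme genes are shown so that their layout can be compared. They are the RefSeq promoter windows on the GRCr8 build, 250 bases before the start and 50 bases from it on, 5′ to 3′ on the strand of the gene, for the 3 largest rises and the 2 largest falls among the genes at 5 CPM or more that have an entry. Csf3, Wisp2 and Lmod1 had none. Capitals mark matches, on either strand, to the interferon-stimulated response element core, the gamma-activated site TTCNNNGAA, the hypoxia response element core ACGTG, the kappaB motif and the CArG box. The windows are chr8:12866402-12866701 (+) for Mmp12, chr3:137036532-137036831 (-) for Il1b, chr8:12782579-12782878 (+) for Mmp13, chr6:95526440-95526739 (+) for Dact1 and chr8:21555191-21555490 (-) for Fat3.
Mmp12: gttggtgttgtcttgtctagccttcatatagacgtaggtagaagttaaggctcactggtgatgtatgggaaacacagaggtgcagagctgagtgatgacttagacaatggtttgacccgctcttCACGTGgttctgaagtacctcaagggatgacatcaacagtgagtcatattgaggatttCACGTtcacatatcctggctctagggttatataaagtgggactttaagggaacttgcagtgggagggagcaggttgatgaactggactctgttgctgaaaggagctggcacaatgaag
Il1b: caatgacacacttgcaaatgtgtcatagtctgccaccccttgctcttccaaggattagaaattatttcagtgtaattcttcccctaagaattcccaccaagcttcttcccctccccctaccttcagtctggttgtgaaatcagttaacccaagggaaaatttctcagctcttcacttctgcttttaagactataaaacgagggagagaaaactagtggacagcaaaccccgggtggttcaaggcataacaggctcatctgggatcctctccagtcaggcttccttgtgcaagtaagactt
Mmp13: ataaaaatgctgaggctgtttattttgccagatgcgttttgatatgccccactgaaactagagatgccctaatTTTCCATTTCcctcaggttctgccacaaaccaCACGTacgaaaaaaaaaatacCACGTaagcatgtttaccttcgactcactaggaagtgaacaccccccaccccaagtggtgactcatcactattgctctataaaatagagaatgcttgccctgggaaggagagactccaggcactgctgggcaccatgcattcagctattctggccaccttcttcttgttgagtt
Dact1: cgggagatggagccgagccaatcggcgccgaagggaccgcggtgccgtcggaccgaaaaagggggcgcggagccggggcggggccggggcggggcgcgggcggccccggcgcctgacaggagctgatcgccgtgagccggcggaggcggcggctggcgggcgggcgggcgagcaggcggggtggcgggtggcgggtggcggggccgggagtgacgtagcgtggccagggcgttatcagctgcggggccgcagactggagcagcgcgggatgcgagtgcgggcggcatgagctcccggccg
Fat3: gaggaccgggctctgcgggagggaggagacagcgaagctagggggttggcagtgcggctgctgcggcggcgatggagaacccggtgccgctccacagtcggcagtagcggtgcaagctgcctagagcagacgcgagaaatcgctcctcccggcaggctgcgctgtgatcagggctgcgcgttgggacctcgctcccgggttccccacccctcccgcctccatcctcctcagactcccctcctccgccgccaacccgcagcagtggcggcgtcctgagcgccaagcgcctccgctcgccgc

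Both metalloproteinase windows held matches. In Mmp12 the hypoxia response element core matched from bases -126, -125 and -68, the first pair being the overlapping strands of one palindrome, and in Mmp13 it matched from -145 and -124, with an interferon-stimulated response element core from -177. The windows of Il1b, Dact1 and Fat3 held none of the 5 motifs in these letters. Of the windows of tested genes, 25.5% hold the hypoxia response element core, 2.95% the interferon-stimulated response element core, 6.55% the gamma-activated site, 5.07% the kappaB motif and 1.23% the CArG box. Over all 27457 windows of 300 bases in the RefSeq table the shares are 19.7%, 3.77%, 8.68%, 4.16% and 1.64%. A match is a string of letters and no evidence of binding. In the same order of motifs, the shares were 23.1%, 4.85%, 7.75%, 9.53% and 1.78% for genes with at least 2-fold rises. For genes with at least 2-fold falls they were 19.4%, 2.08%, 6.92%, 5.88% and 1.73%. Differences between these shares were not tested. A window was matched by 619 of the 831 named genes with such rises (74.5%) and 578 of the 762 with such falls (75.9%). Of all 11856 named genes tested, 9410 matched one (79.4%).

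Tested chemokine genes were higher or not called. All 4 tested neutrophil-attracting CXC genes and all 3 ligands of the receptor CXCR3 were higher in M1CM, with median log2 fold changes of 4.2 and 2.17. Of 15 tested CC and other chemokine genes 8 were higher by at least 2-fold and 7 were not called (median 1.14). Members such as Cxcl2 and Ccl9 reached the counts needed for testing in M1CM alone. They could not have been called lower, so these counts are a description. Cxcl11, which draws activated T cells, had 2087, 2357, 2481 and 2195 CPM in M1CM, against 294, 527, 412 and 383 CPM in Pol1. Its M1CM values lay within a narrow band (log2 fold change 2.52, SE 0.16, adjusted p = 9.91e-08). Cxcl9, another ligand of that receptor, had 4020, 5661, 3034 and 3056 CPM in M1CM and 453, 1253, 909 and 983 CPM in Pol1, with no overlap (log2 fold change 2.17, SE 0.23, adjusted p = 3.1e-05). Cxcl10, the third one, had 2662, 2663, 3514 and 2666 CPM in M1CM, against 1114, 1375, 1634 and 1099 CPM in Pol1. Rat 4 was high and the other M1CM values were nearly the same (log2 fold change 1.15, SE 0.17, adjusted p = 0.000155). Ccl5, or RANTES, which attracts T cells and monocytes, had 50.8, 140, 63.9 and 75.1 CPM in M1CM and 1.18, 2.66, 0.342 and 2.24 CPM in Pol1, with rat 3 highest in both (log2 fold change 5.75, SE 0.30, adjusted p = 2.52e-07). Cxcl3 averaged 594 ± 149 CPM in M1CM and 16.5 ± 7.48 CPM in Pol1, and Ccl20, the ligand of CCR6, 466 ± 154 CPM in M1CM and 16.5 ± 7.58 CPM in Pol1.

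Among 18 tested cytokine and colony-stimulating factor genes, 12 rose by at least 2-fold and 3 (Il33, Il34 and Ctf1) fell, with a median log2 fold change of 2.92. Members such as Csf3, Csf2 and Il1b reached the counts needed for testing in M1CM alone and could not have been called lower. The count of rises is therefore a description. Of the falls 1 was left without the term for the rat, and that of Il33 also ended on leaving out rat 2, rat 3 or rat 8. Lif, a cytokine of the interleukin-6 family, averaged 181 ± 112 CPM in M1CM and 6.58 ± 1.27 CPM in Pol1 (log2 fold change 4.80, SE 0.50, adjusted p = 5.79e-06, and 4.19 without rat 4). Csf2, which encodes GM-CSF, had 2 counts over the Pol1 libraries, and its ratio of levels was 528 with a 95% exact counting interval of 146 to 4365. Of 28 tested cytokine receptor genes 14 were higher and 5 (Il1rl1, Il20rb, Lifr, Il17rc and Il11ra1) lower, and 3 were lower without the term for the rat (median 0.45). Il1rl1, which encodes ST2, the receptor for interleukin-33, had 11, 16, 12.1 and 15.8 CPM in M1CM, against 62.4, 72.5, 116 and 104 CPM in Pol1. It fell in each rat with no overlap (log2 fold change -2.68, SE 0.21, adjusted p = 4.91e-07). Il15ra, the high-affinity receptor chain for interleukin-15, rose (23.9 ± 6.98 CPM in M1CM and 10.2 ± 3.65 CPM in Pol1, log2 fold change 1.26, SE 0.20, adjusted p = 0.000186).

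Components and inhibitors of NF-kB signaling were higher in M1CM in 17 of 22 tested members, 13 of them by at least 2-fold, and lower in none (median 1.19). Tnfaip3, which encodes the inhibitor A20, had 104, 195, 114 and 89.8 CPM in M1CM, against 10.0, 11.3, 8.5 and 6.57 CPM in Pol1. The groups were far apart, with rat 3 highest in both (log2 fold change 3.79, SE 0.27, adjusted p = 2.93e-07). Traf1, an adaptor of tumor necrosis factor receptors, averaged 34.9 ± 13.9 CPM in M1CM and 4.01 ± 1.2 CPM in Pol1, and Birc3, an inhibitor of apoptosis, 71.3 ± 5.81 CPM in M1CM and 13.4 ± 3.58 CPM in Pol1. The subunit gene Nfkb1 rose less (log2 fold change 1.04, SE 0.08, adjusted p = 5.01e-07), as did Nfkbiz, the gene of the nuclear inhibitor IkB-zeta (log2 fold change 1.5, SE 0.19, adjusted p = 2.94e-05).

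Of 19 tested genes of Toll-like receptors and LPS sensing 11 were higher and 2 lower in M1CM (median 1.01). Nod2, a cytosolic sensor of bacterial wall fragments, averaged 28.3 ± 13 CPM in M1CM and 2.5 ± 1.2 CPM in Pol1, and Tlr2, a receptor for bacterial lipoproteins, 333 ± 145 CPM in M1CM and 81.8 ± 41.3 CPM in Pol1. Tlr5, the receptor for flagellin, had 1.12, 0.514, 0.378 and 0.0714 CPM in M1CM, against 10.9, 7.76, 5.16 and 3.77 CPM in Pol1. The rats kept the same order in both media without overlap (log2 fold change -3.79, SE 0.27, adjusted p = 2.93e-07). Tlr6, the partner of the protein of Tlr2, also fell (2.32 ± 0.239 CPM in M1CM and 8.31 ± 0.915 CPM in Pol1, log2 fold change -1.83, SE 0.17, adjusted p = 2.64e-06).

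Pol1 itself held interferon gamma. Among 36 tested type I interferon and antiviral genes 22 were higher in M1CM, 12 of them by at least 2-fold, and none was lower (median 0.45, and 1 lower without rat 2). Mx1, an antiviral GTPase gene, had 442, 345, 156 and 394 CPM in M1CM, against 33.2, 34.7, 16.5 and 8.39 CPM in Pol1. Rat 4 was lowest in M1CM and rat 8 in Pol1, with no overlap (log2 fold change 3.92, SE 0.31, adjusted p = 6.16e-07). The 2′-5′-oligoadenylate synthetase genes Oas2 (5.8 ± 1.87 CPM in M1CM and 0.525 ± 0.201 CPM in Pol1) and Oasl (20.7 ± 6.1 CPM in M1CM and 2.81 ± 1.69 CPM in Pol1) rose as well. Of 20 tested interferon gamma-induced GTPases and effectors 9 were higher and 1 was lower (median 0.23). The lower one was the immunoproteasome gene Psmb10, a call that ended on leaving out rat 3, rat 4 or the term for the rat and with the 8 libraries alone, and 3 members were lower without rat 2. Acod1, which makes itaconate, averaged 161 ± 75.7 CPM in M1CM and 46.4 ± 25.6 CPM in Pol1 (log2 fold change 1.80, SE 0.30, adjusted p = 0.000725). Ido1, which starts the breakdown of tryptophan, had overlapping values and a call that ended without the term for the rat (22.3 ± 22.7 CPM in M1CM and 9.72 ± 7.91 CPM in Pol1, log2 fold change 0.97, SE 0.22, adjusted p = 0.00348).

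The guanylate-binding protein genes, GTPases induced by interferon gamma that lie side by side on chromosome 2 in the RefSeq order, did not all change in one direction. Gbp4 had 82, 80.9, 79.1 and 85 CPM in M1CM, against 21, 18.7, 22.5 and 21.8 CPM in Pol1, both groups being very tight (log2 fold change 1.96, SE 0.22, adjusted p = 9.84e-06). Gbp1, singled out after its values were seen, went the other way, with 115, 82, 44.4 and 73.1 CPM in M1CM and 357, 276, 261 and 318 CPM in Pol1. It was lower in M1CM in all 4 rats with no overlap (log2 fold change -2.02, SE 0.14, adjusted p = 2.89e-07), and is not among the 20 members above because its name comes from another column of the table. Gbp3, Gbp5 and Gbp7 had log2 fold changes of 1.84, 1.12 and 1.02, and Gbp2 was not called (0.27, SE 0.23, adjusted p = 0.373). These genes are close copies, so some of their reads may not have been counted for the right gene, and their single values are uncertain.

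Of 24 tested genes of interferon regulatory factors, JAK, STAT and SOCS proteins 10 were higher and 3 (Jak1, Stat4 and Stat5a) lower (median 0.21), with 0 lower without the term for the rat and 2 without rat 4 or rat 8, that of Stat5a ending without rat 3 as well. Socs3, a feedback inhibitor of cytokine receptors, averaged 194 ± 52.2 CPM in M1CM and 57.9 ± 22.6 CPM in Pol1, and Cish, a related inhibitor, 17 ± 1.9 CPM in M1CM and 5.08 ± 1.79 CPM in Pol1. MHC class I and peptide loading genes were higher in 13 of 23 tested members and lower in 1, RT1-T24-1 (median 0.39). Without rat 2 the count higher was 8, and without the term for the rat none was lower. RT1-A1, a class I heavy chain gene with close copies, rose to 17.4 ± 4.1 CPM in M1CM against 7.79 ± 1.86 CPM in Pol1. MHC class II genes and regulators stayed near the background, with 2 of 11 (Rfx5 and Ctss) higher and 1 (Ifi30) lower (median 0.13, with 1 higher and 0 lower without the term for the rat and 2 lower with the 8 libraries alone). Complement genes were higher in 6 of 18 and lower in 1, the inhibitor gene Cd59 (median 0.62, with 0 lower without the term for the rat and 2 without rat 8). They were led by Cfb, the factor B gene of the alternative pathway (113 ± 42.4 CPM in M1CM and 5.2 ± 5.01 CPM in Pol1, log2 fold change 4.82, SE 0.34, adjusted p = 2.61e-07). Leukocyte adhesion and costimulatory genes were higher in 8 of 15 and lower in 2, Cd276 and Entpd1 (median 0.82). Without the term for the rat 4 were higher, and the lower count ran between 1 and 4 with a rat left out, the call of Cd276 ending without rat 2 or rat 8. Cd40, a receptor for T cell help, averaged 52.6 ± 21.7 CPM in M1CM and 3.86 ± 3.46 CPM in Pol1, and Icam1, an adhesion receptor for leukocyte integrins, 828 ± 86.2 CPM in M1CM and 227 ± 63.6 CPM in Pol1.

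Ptgs2 and Ptges, on the route to prostaglandin E2, and Nos2, which makes nitric oxide, rose, whereas Ptgs1 fell. Ptgs2, the inducible cyclooxygenase gene, had 456, 854, 1991 and 832 CPM in M1CM, against 17, 24.1, 14.9 and 6.75 CPM in Pol1. Rat 4 was highest in M1CM only (log2 fold change 6.05, SE 0.55, adjusted p = 2.04e-06). Ptges, the next enzyme towards prostaglandin E2, had 383, 414, 1513 and 1085 CPM in M1CM and 11, 22.6, 24.6 and 14.7 CPM in Pol1. Rats 4 and 8 formed a high pair in M1CM (log2 fold change 5.53, SE 0.49, adjusted p = 1.63e-06). Ptgs1, the constitutive cyclooxygenase gene, fell (40.9 ± 13 CPM in M1CM and 99.8 ± 31.6 CPM in Pol1, log2 fold change -1.29, SE 0.11, adjusted p = 8.55e-07). Over 19 tested prostaglandin genes 11 were higher and 5 (Ptgs1, Ptger4, Ptgfr, Slco2a1 and Hpgd) lower (median 0.74, and 7 higher without the term for the rat).

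Nos2, the inducible nitric oxide synthase gene, had 463, 568, 630 and 414 CPM in M1CM, against 1.13, 7.43, 1.67 and 2.31 CPM in Pol1. The M1CM values were alike while rat 3 stood above the other rats in Pol1 (log2 fold change 7.60, SE 0.38, adjusted p = 2.03e-07, and 8.19 without rat 3). Slc7a2, which carries arginine, the substrate of that enzyme, into cells, had 1120, 955, 1121 and 860 CPM in M1CM and 121, 117, 128 and 160 CPM in Pol1, 2 tight groups (log2 fold change 2.94, SE 0.16, adjusted p = 4.31e-08). Ass1, which rebuilds arginine from citrulline together with the enzyme of Asl, had 249, 298, 341 and 359 CPM in M1CM, against 16.2, 49.9, 7.72 and 24.1 CPM in Pol1. It rose in all rats (log2 fold change 3.96, SE 0.37, adjusted p = 2.64e-06), whereas Asl fell (log2 fold change -0.62, SE 0.11, adjusted p = 0.000729). Gch1, needed for the cofactor tetrahydrobiopterin, averaged 41.1 ± 8.84 CPM in M1CM and 1.91 ± 1.31 CPM in Pol1. Of 16 tested genes of nitric oxide, arginine, kynurenine and itaconate, 6 were higher and 3 (Asl, Slc7a1 and Kyat1) lower, with a median of -0.03. Nos2 is not among the 16, for the reason given for Gbp1. The call of Slc7a1 ended on leaving out rat 3, rat 4 or rat 8.

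Of 51 tested growth factor genes 22 were higher and 11 lower in M1CM (median 0.29), with 14 and 6 without the term for the rat. The lower share was close to that over all tested genes. Hgf, Gdnf and Vegfa are given in full because their proteins were assayed in the study, and all 3 transcripts rose. Hgf, the hepatocyte growth factor gene, had 114, 216, 46.3 and 58.1 CPM in M1CM and 18.7, 51.1, 9.94 and 6.47 CPM in Pol1. The ranges overlapped, with rat 3 high in both media, and each rat rose (log2 fold change 2.45, SE 0.26, adjusted p = 6.57e-06). Gdnf, the glial cell line-derived neurotrophic factor gene, had 7.8, 8.99, 9.68 and 7.93 CPM in M1CM, against 2.55, 3.02, 1.88 and 2.52 CPM in Pol1, 2 tight groups (log2 fold change 1.83, SE 0.27, adjusted p = 0.00012). Vegfa, the vascular endothelial growth factor gene, had 582, 616, 705 and 682 CPM in M1CM and 306, 344, 297 and 409 CPM in Pol1, the smallest of the 3 rises (log2 fold change 0.95, SE 0.14, adjusted p = 0.000106).

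Bmp2, a bone morphogenetic protein gene, had 11.8, 14.5, 39.8 and 11.1 CPM in M1CM, against 0.689, 0.61, 1.67 and 0.604 CPM in Pol1. Rat 4 stood out in both media (log2 fold change 4.39, SE 0.26, adjusted p = 7.51e-08). Ereg, which encodes the epidermal growth factor receptor ligand epiregulin, rose too (28.2 ± 23.7 CPM in M1CM and 1.59 ± 0.816 CPM in Pol1). The transforming growth factor beta genes Tgfb2 and Tgfb3 fell. Tgfb2 had 39.4, 34, 41.8 and 54.8 CPM in M1CM and 191, 75.8, 201 and 325 CPM in Pol1, without overlap and with rat 3 lowest in both (log2 fold change -2.07, SE 0.18, adjusted p = 1.39e-06). Tgfb3 averaged 26.3 ± 9.92 CPM in M1CM and 142 ± 90.1 CPM in Pol1 (log2 fold change -2.32, SE 0.26, adjusted p = 1.27e-05), and Vegfd, a lymphatic growth factor gene, 4.16 ± 0.916 CPM in M1CM and 24.9 ± 17.8 CPM in Pol1.

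Most tested genes of sugar breakdown and oxygen sensing rose, and no tested nuclear gene of oxidative phosphorylation was called higher. Of 19 tested glycolysis and lactate genes 18 were higher in M1CM, 10 by at least 2-fold (median 1.05). The other one, the lactate dehydrogenase B gene Ldhb, was lower, a call that ended without rat 3, without rat 4, without the term for the rat and with the 8 libraries alone. Slc2a1, the gene of the glucose transporter GLUT1, had 529, 452, 662 and 430 CPM in M1CM, against 75.5, 98.9, 115 and 89.4 CPM in Pol1. Rat 4 was highest in both media and no values overlapped (log2 fold change 2.46, SE 0.14, adjusted p = 5.61e-08). Slc16a3, which exports lactate, averaged 605 ± 160 CPM in M1CM and 114 ± 46 CPM in Pol1, and Pdk1, which holds pyruvate back from mitochondria, 82.5 ± 7.56 CPM in M1CM and 28.3 ± 7.34 CPM in Pol1. Of 24 tested genes of the hypoxia-inducible factor (HIF) pathway and its targets 18 were higher, 13 by at least 2-fold, and none lower (median 1.27). Hif1a itself had 469, 433, 480 and 500 CPM in M1CM and 218, 346, 305 and 227 CPM in Pol1, a smaller rise without overlap (log2 fold change 0.80, SE 0.14, adjusted p = 0.000509). Egln3, a prolyl hydroxylase that is itself a HIF target, averaged 74 ± 53.1 CPM in M1CM and 2.53 ± 2.4 CPM in Pol1 (log2 fold change 5.13, SE 0.45, adjusted p = 1.48e-06, and 5.77 without rat 3). M0CM also stood above D10 in the means of Slc16a3 (154 and 52.0 CPM), Pdk1 (31.2 and 16.4 CPM) and Egln3 (2.04 and 0.259 CPM). In the second test, given further below, Egln3 was not called (contrast 2.15, SE 0.94, adjusted p = 0.121). There the contrast was positive for 7 of the 19 glycolysis and lactate genes and negative for 0. For the 24 HIF genes these counts were 13 and 2.

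Nuclear genes of oxidative phosphorylation were higher in none and lower in 15 of 48 tested members, none by 2-fold (median -0.29). That count was 3 without the term for the rat and 7 with the 8 libraries alone, and leaving out rats 2, 3, 4 or 8 gave 11, 8, 5 and 12. Genes of the tricarboxylic acid cycle were higher in 1 (Dld) and lower in 7 of 17 (median -0.17). The higher call ended without rat 2, without rat 8 and without the term for the rat, and 4 were lower without rat 3, without rat 4 and with the 8 libraries alone. The list held the citrate synthase gene Cs, which fell to 78.4 ± 4.43 CPM in M1CM, against 101 ± 4.13 CPM in Pol1. Among the 13 genes of the mitochondrial genome 1 (Mt-co1) was higher, and its call ended on leaving out rat 2, rat 8 or the term for the rat (median -0.10).

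Of 41 tested genes of mitosis and the spindle checkpoint 25 fell, 18 by at least 2-fold, and none rose (median -0.96), with 16 lower without the term for the rat and 15 without rat 8. Cdc20, which starts anaphase, had 1.47, 1.37, 5.06 and 3.39 CPM in M1CM, against 6.44, 4.67, 11.6 and 17.2 CPM in Pol1. The ranges overlapped, with rats 4 and 8 high in both media, and each rat fell (log2 fold change -1.81, SE 0.27, adjusted p = 0.000132). Cenpa, the centromere histone gene, averaged 0.856 ± 0.226 CPM in M1CM and 3.28 ± 2.03 CPM in Pol1. DNA replication genes mostly were not called, with 2 (Gins2 and E2f2) higher and 5 (Mcm4, Prim1, Prim2, Rrm1 and Tk1) lower of 46 (median -0.07). The lower count was 13 without rat 4, 1 without rat 8 and 0 without the term for the rat. Calls ended without rat 8 for Tk1, Rrm1 and Mcm4, without rat 2 or rat 3 for Mcm4 and E2f2, and without rat 4 for E2f2. Among 22 CDK inhibitor and p53 target genes 7 were higher and 9 lower (median -0.05, and 3 lower without the term for the rat). Btg2, an antiproliferative gene, rose (60.0 ± 29.7 CPM in M1CM and 11.3 ± 1.59 CPM in Pol1) and Gadd45g, a stress gene, fell (6.71 ± 0.773 CPM in M1CM and 23 ± 4.12 CPM in Pol1). Of 30 tested genes of the BCL2 family, death receptors and caspases 10 were higher and 4 (Bcl2, Bok, Bmf and Pmaip1) lower (median 0.10, and 2 lower without rat 4, without rat 8 or without the term for the rat). The Bcl2 call ended in each of those 3 cases. Cflar, which blocks caspase-8, averaged 138 ± 38.5 CPM in M1CM and 35.8 ± 5.86 CPM in Pol1, and Bok, a death effector gene, 1.76 ± 0.517 CPM in M1CM and 4.95 ± 2.41 CPM in Pol1.

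Of 21 tested smooth muscle and contractile genes 17 fell, 11 by at least 2-fold, and none rose (median -1.2). Cnn1, which encodes calponin, an actin-binding protein of smooth muscle, had 2.47, 0.771, 1.13 and 3.82 CPM in M1CM, against 37.5, 24.8, 36.2 and 48.8 CPM in Pol1. Rat 3 was lowest and rat 8 highest in both media (log2 fold change -4.17, SE 0.33, adjusted p = 5.61e-07). Smtn, the smoothelin gene, had 25.8, 13.1, 15.8 and 16.4 CPM in M1CM and 117, 79.1, 87 and 90.4 CPM in Pol1, with the rats in the same order in both media (log2 fold change -2.41, SE 0.17, adjusted p = 2.14e-07). Of 48 focal adhesion and actin-binding genes 28 fell and 9 rose (median -0.39, and 18 fell without the term for the rat). Itga9, an integrin chain gene, was among those that fell (7.3 ± 2.38 CPM in M1CM and 36.7 ± 9.69 CPM in Pol1). Itga7, which encodes a laminin-binding integrin chain, went the other way, with 73.8, 174, 220 and 188 CPM in M1CM, against 10.2, 11.9, 19 and 25.9 CPM in Pol1. It rose in all rats (log2 fold change 3.27, SE 0.16, adjusted p = 1.81e-08).

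Caveolae and cGMP signaling genes fell in 11 and rose in 2 of 16 tested members, Pde5a and Npr2 (median -1.2, and 4 rose without rat 3). Cavin2, which shapes caveolae, averaged 0.068 ± 0.0566 CPM in M1CM and 3.99 ± 2.37 CPM in Pol1 (log2 fold change -5.75, SE 0.60, adjusted p = 6.43e-06). Gucy1b1, a subunit of the soluble guanylate cyclase that nitric oxide activates, averaged 0.384 ± 0.264 CPM in M1CM and 4.35 ± 3.29 CPM in Pol1 (log2 fold change -3.44, SE 0.24, adjusted p = 2.78e-07). Targets of the mechanosensitive regulators YAP and TEAD fell in 11 and rose in 3 of 21, Wwtr1, Axl and Dock5 (median -0.34, the call of Wwtr1 ending without rat 3 or rat 4). Ctgf, a matricellular gene that is a standard target of both, had 800, 262, 239 and 748 CPM in M1CM, against 2343, 1539, 2121 and 3363 CPM in Pol1. Rats 2 and 8 were the higher pair in M1CM as in Pol1 (log2 fold change -2.25, SE 0.28, adjusted p = 2.75e-05).

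Of 24 tested collagen chain genes 12 fell and 4 (Col4a1, Col4a2, Col7a1 and Col18a1) rose (median -0.24), with 4 and 1 without the term for the rat, and the rise of Col7a1 ended without rat 4. Col11a1, a chain of fibrillar collagen XI, had 334, 95.9, 74.9 and 296 CPM in M1CM and 1155, 386, 506 and 875 CPM in Pol1. It fell in each rat and no values overlapped (log2 fold change -1.99, SE 0.23, adjusted p = 1.32e-05). Of 41 other matrix proteins and cross-linking enzymes 16 rose and 8 fell (median 0.14), with 8 and 3 without the term for the rat. The share of falls was close to that over all tested genes. Thbs2, which encodes thrombospondin-2, had 2638, 1326, 958 and 739 CPM in M1CM, against 9037, 8079, 8747 and 4191 CPM in Pol1, with rat 8 lowest in both (log2 fold change -2.50, SE 0.20, adjusted p = 6.68e-07). Serpinh1, the collagen chaperone HSP47 gene, averaged 738 ± 164 CPM in M1CM and 1558 ± 72.8 CPM in Pol1, while Lox, which cross-links collagen, rose (3317 ± 865 CPM in M1CM and 1235 ± 230 CPM in Pol1).

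Metalloproteinases and their inhibitors rose in 17 and fell in 7 of 35 tested members, a share of falls close to that over all tested genes. The median was 0.30, and 3 fell without the term for the rat. The largest rises of the list lay side by side on chromosome 8, in a run of 10 genes from Mmp13 to Mmp7 in the RefSeq order, of which 5 passed the count filter and were higher in M1CM. The other 5 were below the filter, and a member that passed through its M1CM counts alone, such as Mmp1b, had to differ, so this count is a description. Mmp3, encoding stromelysin-1, had 1430, 6345, 13113 and 8272 CPM in M1CM, against 22, 67.2, 62.3 and 105 CPM in Pol1. Rat 2 was lowest in both media (log2 fold change 6.67, SE 0.48, adjusted p = 2.93e-07). Mmp10, the stromelysin-2 gene, averaged 1008 ± 656 CPM in M1CM and 8.51 ± 4.93 CPM in Pol1. Mmp1b, a collagenase gene taken up for its place in the run, had 115 counts in M1CM and 1 in Pol1 (ratio of levels 122, 95% exact counting interval 21.4 to 4856), a call that DESeq2 did not make and whose fitted log2 fold change of 6.37 was 7.89 without rat 8. Below the count filter, Mmp1 had 69 counts in M1CM and 0 in Pol1, at least 24.4-fold higher when the 4 Pol1 libraries together are set at 3 counts, Mmp27 had 12 in M1CM and 0 in Pol1, and Mmp8 had 4 in M1CM and 0 in Pol1. Mmp20 and Mmp7 had none in either medium. The collagenases and stromelysins of this run share sequence, so some of their reads may not have been counted for the right gene. Adamts6, outside the run, fell (9.09 ± 2.67 CPM in M1CM and 21.5 ± 4.54 CPM in Pol1).

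**Figure D3:**
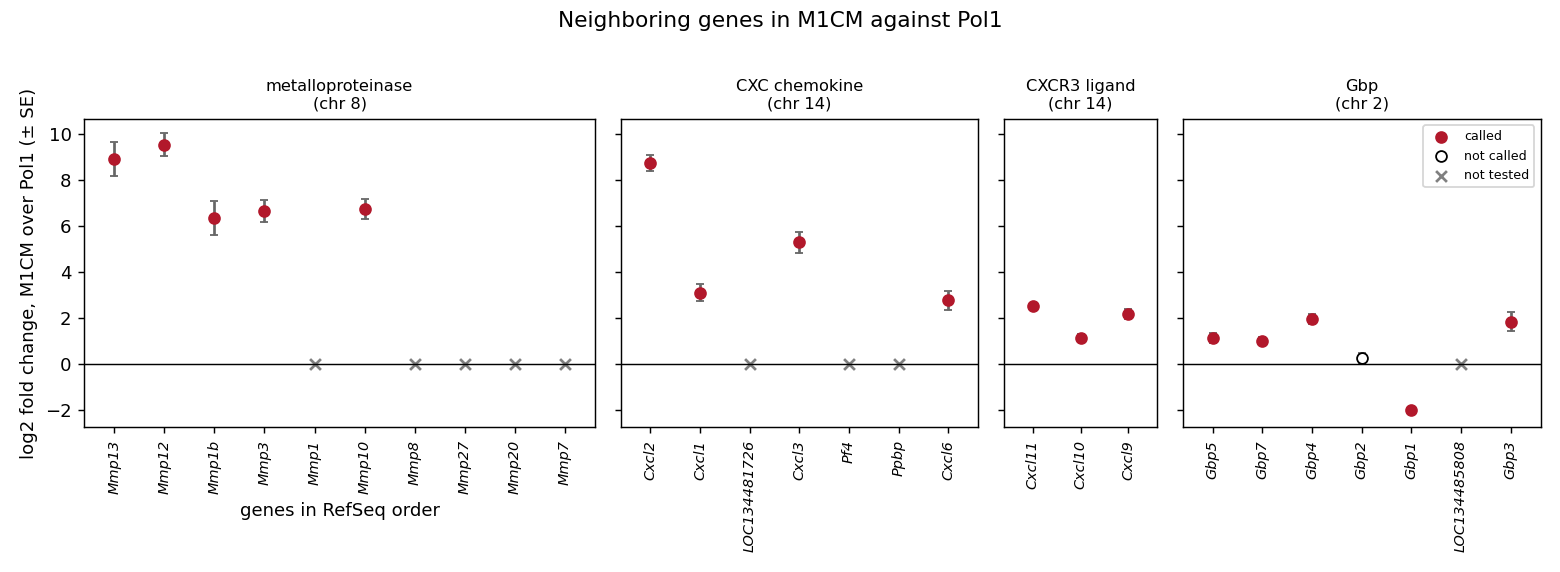
Fitted log2 fold change of M1CM over Pol1 with its SE for neighboring genes in RefSeq order in 4 clusters, with filled points called, open points not called, and crosses on the zero line for genes not tested, which have no value. The 5 tested metalloproteinase genes lie between 6.37 and 9.56, and in the guanylate-binding protein cluster Gbp1 (-2.02) stands below its neighbors.

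Of 29 tested genes of cholesterol synthesis and uptake 13 fell and 5 rose (median -0.45, and 8 fell without rat 2 or without the term for the rat). Dhcr7, an enzyme of the last steps of synthesis, averaged 18.4 ± 2.62 CPM in M1CM and 44.2 ± 8.34 CPM in Pol1. The 5 that rose were Insig2, a brake on synthesis, Npc1 and Abca1, which move cholesterol out of lysosomes and cells, Abcg1, which exports cholesterol (75.3 ± 14.8 CPM in M1CM and 9.86 ± 3.82 CPM in Pol1), and Ch25h, which makes 25-hydroxycholesterol (44.4 ± 7.7 CPM in M1CM and 0.966 ± 0.84 CPM in Pol1, log2 fold change 5.63, SE 0.40, adjusted p = 2.83e-07, and 6.23 without rat 3). Fatty acid genes fell in 12 and rose in 7 of 27 (median -0.25, and 7 fell without the term for the rat). Fads1, a fatty acid desaturase gene, had 38.1, 27.5, 30.1 and 22.7 CPM in M1CM, against 159, 121, 134 and 91.4 CPM in Pol1. The rats kept the same order in both media (log2 fold change -2.09, SE 0.10, adjusted p = 1.36e-08). Acsl1, which activates fatty acids, rose (224 ± 42.5 CPM in M1CM and 49.1 ± 14 CPM in Pol1).

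NRF2, glutathione and thioredoxin genes were higher in 18 and lower in 6 of 31 (median 0.50), a lower share close to that over all tested genes. The lower count was 1 without the term for the rat, 2 without rat 4 and 4 without rat 3. Slc7a11, which imports cystine for glutathione, had 149, 220, 99.8 and 75.3 CPM in M1CM, against 23, 18.4, 31.3 and 32.6 CPM in Pol1. The rats that were low in Pol1 were the high ones in M1CM (log2 fold change 2.36, SE 0.30, adjusted p = 3.99e-05). Txnrd1, the thioredoxin reductase gene, averaged 491 ± 104 CPM in M1CM and 142 ± 9.88 CPM in Pol1. Genes of the integrated stress response and amino acid supply were lower in 18 and higher in 7 of 35 (median -0.27, and 11 lower without the term for the rat). Slc7a5, a carrier of large amino acids, had 105, 44.9, 53.5 and 73 CPM in M1CM and 294, 217, 271 and 294 CPM in Pol1, without overlap (log2 fold change -1.99, SE 0.21, adjusted p = 6.53e-06). Of 24 tested chaperone and unfolded protein response genes 16 were higher and 1 (Herpud1) lower (median 0.35), with Ero1a, which drives disulfide formation, at 1016 ± 111 CPM in M1CM and 261 ± 98.7 CPM in Pol1. Iron, zinc and metallothionein genes were higher in 12 and lower in 2 of 22, Aco1 and Slc30a1 (median 0.87, and 1 lower without rat 4 or rat 8). Lcn2, which binds bacterial iron carriers, averaged 250 ± 137 CPM in M1CM and 6.5 ± 8.26 CPM in Pol1 (log2 fold change 5.96, SE 0.42, adjusted p = 2.79e-07, and 6.63 without rat 3). Lysosomal genes were higher in 18 and lower in 3 (Nagk, Atp6v0d1 and Tfeb) of 38 (median 0.28, and 8 higher without the term for the rat). The call of Atp6v0d1 ended without rat 2, rat 3 or rat 4. The 1 rise of at least 2-fold was that of the macrophage marker gene Cd68, with 426 counts in M1CM and 26 in Pol1 (log2 fold change 3.99, SE 0.55, adjusted p = 7.05e-05). The protease gene Ctsb rose less (1091 ± 106 CPM in M1CM and 636 ± 108 CPM in Pol1).

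Of 25 tested immediate early transcription factor genes 9 were higher and 5 (Fos, Fosb, Klf2, Klf6 and Dusp1) lower, a lower share close to that over all tested genes (median 0.30, and 3 lower without the term for the rat). Fos had 1.39, 1.58, 1.74 and 0.607 CPM in M1CM, against 6.97, 9.87, 10.9 and 5.29 CPM in Pol1. Rat 4 was highest and rat 8 lowest in both media (log2 fold change -2.65, SE 0.14, adjusted p = 2.84e-08). Its relative Fosl1 rose (81.4 ± 34.8 CPM in M1CM and 10.8 ± 3.16 CPM in Pol1, log2 fold change 2.89, SE 0.27, adjusted p = 2.14e-06). Osteogenic, adipogenic and chondrogenic genes rose in 5 (Ibsp, Prg4, Fabp4, Comp and Sox5) and fell in 8 of 21 (median -0.38), with 2 and 2 without the term for the rat. Ibsp, which encodes bone sialoprotein, had 58.8, 67.8, 26.4 and 40.6 CPM in M1CM and 0.932, 2.73, 0.786 and 2.7 CPM in Pol1, with rat 4 lowest in both (log2 fold change 4.82, SE 0.48, adjusted p = 4.07e-06). Pparg, the master regulator of fat cell formation, averaged 0.0746 ± 0.0761 CPM in M1CM and 1.54 ± 1.2 CPM in Pol1 (log2 fold change -4.17, SE 0.47, adjusted p = 1.18e-05, and -5.18 without rat 8), and Sox9, a cartilage regulator, 3.22 ± 1.36 CPM in M1CM and 10.6 ± 6.03 CPM in Pol1.

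Wnt, Frizzled, BMP and Notch components rose in 10 and fell in 16 of 43 (median -0.16), a share of rises near that over all tested genes. Fst, encoding follistatin, which binds activins and BMPs, had 428, 872, 1106 and 365 CPM in M1CM, against 51.7, 119, 108 and 30.8 CPM in Pol1. Rats 3 and 4 were high in both media (log2 fold change 3.23, SE 0.16, adjusted p = 1.58e-08). The Wnt receptor gene Ror1 fell (1.43 ± 0.816 CPM in M1CM and 12.5 ± 3.81 CPM in Pol1). Of 19 MSC surface markers and niche factors 6 rose and 5 (Anpep, Nes, Spp1, Itgb1 and Pdgfrb) fell (median 0.11), with 2 and 2 without the term for the rat and 3 falls without rat 4 or rat 8. Cd44, the hyaluronan receptor used as an MSC marker, had 838, 1003, 839 and 732 CPM in M1CM, against 216, 197, 239 and 270 CPM in Pol1, far apart in every rat (log2 fold change 1.93, SE 0.20, adjusted p = 6.55e-06). Anpep, which encodes CD13, fell (44.2 ± 7.66 CPM in M1CM and 118 ± 47.1 CPM in Pol1, log2 fold change -1.32, SE 0.17, adjusted p = 4.13e-05). Endothelial markers rose in 1 (Flt4) and fell in 3 (Tek, Erg and Egfl7) of 8 tested members, with 0 and 1 without the term for the rat, and the rise ended on leaving out rat 3, rat 4 or rat 8, as did the fall of Egfl7 for rat 3 or rat 4.

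A second test asked whether a gene differed between M1CM and Pol1 otherwise than between M0CM and D10. For each gene the difference M1CM minus Pol1 was set against the difference M0CM minus D10. The contrast was positive for 1387 of the 13556 genes (10.2%) and negative for 1419 (10.5%), 593 and 635 of them by at least 2-fold. Without scaling factors the split was 1111 positive and 1827 negative, and without the term for the rat 571 and 389. Leaving out rat 4 gave 741 and 717, and leaving out rat 8 gave 782 and 797. If Pol1 was made on another base medium than D10, that change of base stands in the second difference but not in the first, and it cannot be told apart here. LPS and interferon gamma had been given to the M1 macrophages and not to the M0 macrophages, so the products in M1CM and M0CM may differ. How much LPS and interferon gamma was left in M1CM is unknown. The contrast therefore does not show the same conditioned medium with and without the stimulus.

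Some genes with large contrasts were much less apart between M0CM and D10 than between M1CM and Pol1. Mmp3 averaged 7290 ± 4834 CPM in M1CM and 64.1 ± 33.8 CPM in Pol1, beside 8.26 ± 3.48 CPM in M0CM and 6.08 ± 2.79 CPM in D10 (contrast 6.18 on the log2 scale, SE 0.61, adjusted p = 2.51e-05). Tnfaip3 averaged 126 ± 47.2 CPM in M1CM and 9.1 ± 2.03 CPM in Pol1, beside 3.83 ± 1.55 CPM in M0CM and 3.65 ± 1.72 CPM in D10 (3.70, SE 0.39, adjusted p = 3.97e-05). Mmp3 was nevertheless higher in M0CM (7.22, 5.96, 13.4 and 6.45 CPM) than in D10 (4.81, 4.13, 10.2 and 5.18 CPM) in each rat. Tnfaip3 was higher in M0CM than in D10 in rats 4 and 8 and lower in rats 2 and 3. In both genes M1CM stood far above Pol1.

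The falls showed more than one pattern over the 4 media. Wisp2 averaged 7.26 ± 7.07 CPM in M1CM and 221 ± 138 CPM in Pol1, beside 288 ± 149 CPM in M0CM and 428 ± 235 CPM in D10 (contrast -4.53, SE 0.30, adjusted p = 1.91e-06). Cnn1 averaged 2.05 ± 1.39 CPM in M1CM and 36.8 ± 9.8 CPM in Pol1, beside 200 ± 26.2 CPM in M0CM and 269 ± 43.1 CPM in D10 (-3.74, SE 0.41, adjusted p = 5.55e-05). Dact1 averaged 0.976 ± 0.483 CPM in M1CM and 22.5 ± 3.55 CPM in Pol1, beside 26.4 ± 3.55 CPM in M0CM and 30.6 ± 3.3 CPM in D10 (-4.30, SE 0.31, adjusted p = 3.29e-06). By these means Cnn1 was highest in the media without LPS and interferon gamma, lower in Pol1 and lowest in M1CM, whereas Dact1 averaged between 22.5 and 30.6 CPM in the other 3 media. Duox1 differed again, being highest in Pol1, with 1.37 ± 1.0 CPM in M1CM and 30.3 ± 22 CPM in Pol1, beside 10.6 ± 4.23 CPM in M0CM and 9.08 ± 2.29 CPM in D10 (-4.47, SE 0.56, adjusted p = 0.00013, and -3.77 without rat 4).

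**Figure D4:**
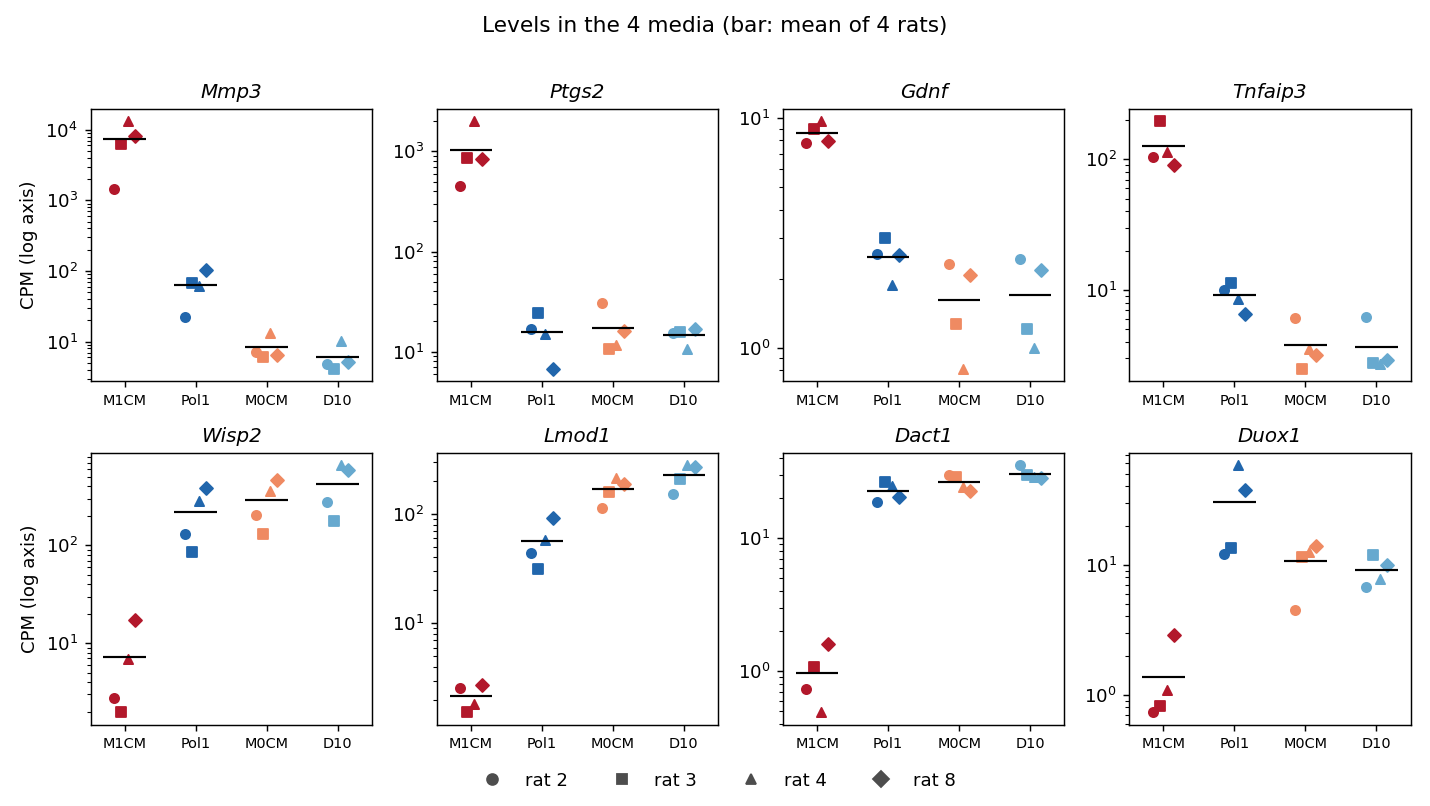
Levels of 8 genes in the 4 media, in CPM on a log axis, with a marker shape per rat and a bar at the mean of the 4 rats. Mmp3, Ptgs2, Gdnf and Tnfaip3 are highest in M1CM, and Mmp3 and Tnfaip3 are also higher in Pol1 than in M0CM and D10. Dact1 (mean 0.976 CPM) and Wisp2 (mean 7.26 CPM) are low in M1CM alone, and Duox1 is highest in Pol1 (mean 30.3 CPM).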

How the data were processed

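RNA-seq libraries of 4 rats in 4 media were compared from the deposited table of 26689 genes. The authors counted reads per gene with HTSeq 0.6.1 after mapping with TopHat2 2.0.12 and Bowtie2 2.2.3 to Rnor 6.0, per the labels and the study's methods, and whether counting used strand is not given in the sources used here. These raw read counts were the values used. The deposited FPKM values, which the authors scaled by depth and gene length, and the authors' fold changes and p-values of their own comparisons were not used (DESeq, version 1.18.0 in the submitters' processing notes and another version in the study's methods). The 13556 genes that reached 10 counts in 4 or more libraries were fitted with edgeR 4.0.16 (limma 3.58.1, R 4.3.3) with TMM factors, condition and rat as terms and all 16 libraries, and the quasi-likelihood F-test, two-sided, was adjusted by Benjamini and Hochberg over all 13556 genes. Each SE was the log2 fold change divided by the square root of F. With few counts in a medium, as for Csf3 in Pol1, such an SE can be smaller than the counting error. Every adjusted p in the text is from this fit unless DESeq2 1.42.0 is named. Library totals were 23291125 to 28075391 counts over the 8 libraries compared, and counting intervals cover counting error only.

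Whether the study's own test had a term for the rat is not given in the sources used here. Cells of each rat were in every medium, and libraries of the same rat deviated together (correlation of deviations 0.33 to 0.728 over 24 pairs, against -0.519 to 0.225 over 72 pairs of different rats). The p-values rest on the spread left after the terms for medium and rat, estimated over all 16 libraries of 4 rats.

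Gene lists (47) and named genes were chosen with earlier results of these data known, and no list was tested. Named were the 12 largest called rises and falls with at least 5 CPM and 1 direction in 4 rats, up to 3 called members of each list in each direction at 1 CPM or more, genes of the sort, growth factors and mediators, and the 5 largest values of the second test in each direction. A few genes named by this rule are not reported here. Gbp1, Mmp1b, Mmp1, the other genes of the clusters and some members of short counts (among them Il17rc, Il11ra1, Prim1, Prim2, Hpgd, Ptger4, Bmf, Col4a2, Insig2, Npc1, Sox5, Comp, Dusp1, Klf6 and Pdgfrb) were added after their values were seen. List counts used deposited names only. A further 412 genes, among them Nos2, Gbp1, Lmod1, Kctd12 and Mpeg1, were named from a KEGG column that stands only beside genes the authors called, and 7739 had no name. RefSeq tables of GRCr8 gave promoters and gene order, not coordinates of the counts. Alternatives were no term for the rat, the 8 libraries alone, median-of-ratios or no factors, no count filter, DESeq2 and each rat left out. The fitting function was tested on simulated data at its main settings, with edgeR and with DESeq2. DESeq2 made more false calls there than its threshold allows.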

Additional observations from a re-analysis of the deposited data

Results flagged for a closer look

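Among the 102 groups of 4 libraries behind the genes given library by library, 6 held a library that stood apart from the other libraries by Dixon's criterion at 95%, which chance gives in about 1 of 20 groups. Of the 6, 4 were libraries of rat 4. In M1CM rat 4 stood apart for Il23a at 120 CPM, for Cxcl10 at 3514 CPM and for Bmp2 at 39.8 CPM, and in Pol1 for Bmp2 at 1.67 CPM. Rat 8 stood apart for Duox1 at 2.86 CPM in M1CM and for Mmp13 at 11 CPM in Pol1.

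The difference M1CM minus Pol1 exceeded the difference M0CM minus D10 for 1387 genes and fell below it for 1419, by the test of the contrast itself. The largest positive contrasts on the log2 scale were those of Nos2 (11.63, SE 2.55, adjusted p = 0.00921), Csf3 (10.06, SE 2.34, adjusted p = 0.00884), Cxcl9 (8.70, SE 1.10, adjusted p = 0.000394), Csf2 (8.18) and Il1b (8.02). These 5 genes had between 0 and 7 counts over the M0CM libraries and between 1 and 48 over the D10 libraries, so that these sizes depend on the prior count of the fit. Without the term for the rat the calls of Csf3, Csf2 and Il1b ended, and they also ended without rat 4 for Csf3, without rat 3 or rat 8 for Csf2 and without rat 3 or rat 4 for Il1b. The contrast of Csf2 ran between 4.96 without rat 8 and 11.26 without rat 3, and that of Il1b was 7.18 without rat 3. The largest negative contrasts were those of Wisp2 (-4.53), Duox1 (-4.47), Dact1 (-4.30), Lmod1 (-4.19) and Kctd12 (-3.89, SE 0.44).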

How the results depend on the processing

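The counts of genes higher in M1CM (2691) and of at least 2-fold rises and falls (927 and 886) stayed within 1.5 times under every alternative run. Genes lower in M1CM numbered 2645 with the replicate block and 1535 without it. The second contrast was positive for 571 and negative for 389 genes without the block, against 1387 and 1419 with it, and for 741 to 1065 and 717 to 1115 genes with a rat left out. No called gene changed sign without the block. The log2 fold change of Thy1, not called, was -0.00 and became 0.0052 with median-of-ratios factors and with DESeq2, and -0.082 to 0.10 with a rat left out. Of 240 called genes of the naming rule, 55 lost the call without the block, 17 with the 8 libraries alone, 1 without scaling factors and 12 to 18 with a rat left out. Of the 50 called genes given library by library, Itgb1 alone lost it, without the block, with the 8 libraries alone and without rat 4 or rat 8. Of 94 counts of list members, 41 moved by over 1.5 times without the block, 12 with the 8 libraries alone and 9 to 12 with a rat left out. The causes were not tested. Genes with few counts in Pol1 (among them Csf3, Il23a, Mmp12, Il1b, Csf2 and Mmp1b) have folds limited by depth.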
